A study of Homo sapiens with 9 samples.

Results

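RNA polymerase II (RNAPII) peaks were compared in 2 chromatin immunoprecipitation and sequencing (ChIP-seq) libraries in which RECQL5, a DNA helicase that binds RNAPII, had not been altered by a hairpin or by the inducing drug. Both come from HEK293, a human embryonic kidney cell line. The first, called control shRNA, was made from HEK293 cells infected with a lentivirus. The labels call its insert a control shRNA, and the study's methods describe an empty pLKO.1 vector. The second, called no doxycycline, was made from HEK293 T-REx cells, which carry the tetracycline repressor. They had been transfected with a pcDNA4/TO plasmid holding full-length RECQL5 under a promoter that doxycycline switches on, had been selected with Zeocin, and were at 0.0 ng/ml of doxycycline. The cells of both libraries thus kept their own RECQL5 gene, and those of the second also carried RECQL5 sequence on a plasmid. The antibody, 4H8, recognises all forms of RNAPII per the methods. The study's methods give a larger number of peaks for wild-type cells than the control shRNA list holds, and whether this list is the one behind that number could not be settled from the files, so each absence from it below holds for the list as deposited. All peaks as deposited were used, 5287 from the control shRNA list and 47060 from the no doxycycline list, together 52347 of the 142069 peaks of the series. The series holds 9 samples, 5 of RNAPII and 4 of non-specific IgG. The IgG libraries are labelled control shRNA, RECQL5 shRNA5, RECQL5 shRNA7 and untreated. None is labelled with a doxycycline dose, and the labels do not name the cells of the untreated one. The other 3 RNAPII libraries carried a RECQL5 hairpin (shRNA5 or shRNA7, in HEK293) or received 1.0 ng/ml doxycycline (in the T-REx cells), and their values serve here only as side values.

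RNAPII transcribes protein-coding genes and many small nuclear RNA genes. It is loaded at the promoter, often pauses shortly after the transcription start site (TSS), and is then released into the gene body, so that ChIP-seq of all its forms gives the highest signal close to the TSS and at short, heavily transcribed genes. Many promoters are rich in G and C, while a smaller class, which includes histone and immediate early genes, holds a TATA box shortly before the TSS.

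Each of the 2 groups was 1 library, and no replicate checks any difference below. No test across samples was possible, and no p-value is given. The intervals are 95% intervals (Wilson for shares, order statistics for medians, exact Poisson for tags) that cover counting error only. The system, the virus or plasmid, the IgG background and the depth of sequencing all changed together between the libraries, and their parts cannot be told apart. The files give only tags within peaks, not the reads of each library. The methods give ranges by kind of experiment, higher for the hairpin libraries than for the doxycycline ones, so that by them the shorter list comes from the deeper set. Tags were not scaled for depth here. Tags within peaks summed to 842310 in the control shRNA list and 1449163 in the no doxycycline list. The smallest peak held 35 tags in the first and 9 in the second, and the median peak 93 and 14 tags. The median peak was 1905 bp long in the control shRNA list and 622 bp without doxycycline, with medians of 48.2 and 22.3 tags per kb of peak. Gains and losses below therefore read as presence or absence in a list, not as presence or absence of RNAPII.

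As deposited, nearly all control shRNA promoters were also in the longer list. A protein-coding gene was called occupied when a peak touched the 500 bp on either side of the TSS of one of its coding transcripts. Of 19819 coding genes, 3420 were occupied in the control shRNA list and 11290 in the no doxycycline list, a background of 17.3% and 57% of all coding genes. Both lists held 3403 of them. This is 99.5% of the control shRNA genes (95% interval 99.2 to 99.7%) and 30.1% of the no doxycycline genes (29.3 to 31.0%). With the lists cut to equal length by tags per kb or by score, the share of control shRNA genes was 83.8% or 82.2%. 17 genes were occupied in the control shRNA list alone and 7887 in the no doxycycline list alone. With the gene body counted too, 4301 and 12498 genes were occupied (backgrounds of 21.7% and 63.1%), 4284 of them in both.

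The sequences of some of these promoters are shown first, because the most densely occupied promoters of both lists more often held the letters TATAAA. Sequences were read from GRCh37 over 250 bp before and 50 bp from the TSS of the longest coding transcript, and TATAAA was searched on the sense strand from 100 bp before the TSS up to it. The letters were present in 4.25% of the promoters of all coding genes (842 of 19797 with a complete window), in 3.29% of those occupied in both lists, in 1.09% of those in the no doxycycline list alone and in 7.58% of those in neither list. Among the 500 promoters with the most tags per kb, 12.2% held them in the control shRNA list (9.62 to 15.4%) and 10.4% in the no doxycycline list (8.02 to 13.4%). Histone genes made up part of this. Without the 66 replication-dependent histone genes the shares were 7.64% (5.55 to 10.4%) and 7.25% (5.23 to 9.96%), beside 4.08% of all promoters. The median G and C content was 62.3% at promoters in both lists, 66.7% in the no doxycycline list alone and 56.3% in neither.

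H2BC5, H1-4, HNRNPAB and H2AC20 were 4 promoters with TATAAA and a high mean rank over both lists. They are shown 5′ to 3′ to place the letters relative to the TSS. Not all chromosomes were drawn on for this choice, so they need not be the 4 highest of the genome. H2BC5 and H2AC20 encode core histones, H1-4 a linker histone and HNRNPAB an RNA-binding protein. They are followed by 2 immediate early genes, JUNB and EGR1, whose rank differed between the lists or led one of them, and by ZNF302, a zinc finger gene occupied without doxycycline alone. Capitals mark TATAAA and the first transcribed base. H2BC5 lies at chr6:26158124-26158423, H1-4 at chr6:26156307-26156606, HNRNPAB at chr5:177631284-177631583, H2AC20 at chr1:149858218-149858517, JUNB at chr19:12902050-12902349, EGR1 at chr5:137800918-137801217 and ZNF302 at chr19:35168294-35168593, each on the plus strand of GRCh37.
H2BC5: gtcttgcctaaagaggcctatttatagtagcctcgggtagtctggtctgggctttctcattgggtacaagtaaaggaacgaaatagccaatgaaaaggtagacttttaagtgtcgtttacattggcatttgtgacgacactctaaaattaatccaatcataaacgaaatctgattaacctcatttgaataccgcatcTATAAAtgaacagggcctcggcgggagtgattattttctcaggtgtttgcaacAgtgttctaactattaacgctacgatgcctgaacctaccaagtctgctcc
H1-4: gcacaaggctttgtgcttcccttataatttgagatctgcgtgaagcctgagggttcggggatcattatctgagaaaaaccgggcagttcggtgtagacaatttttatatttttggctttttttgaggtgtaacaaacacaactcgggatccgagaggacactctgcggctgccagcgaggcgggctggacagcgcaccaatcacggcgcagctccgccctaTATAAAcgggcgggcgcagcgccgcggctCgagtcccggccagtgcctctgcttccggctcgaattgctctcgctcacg
HNRNPAB: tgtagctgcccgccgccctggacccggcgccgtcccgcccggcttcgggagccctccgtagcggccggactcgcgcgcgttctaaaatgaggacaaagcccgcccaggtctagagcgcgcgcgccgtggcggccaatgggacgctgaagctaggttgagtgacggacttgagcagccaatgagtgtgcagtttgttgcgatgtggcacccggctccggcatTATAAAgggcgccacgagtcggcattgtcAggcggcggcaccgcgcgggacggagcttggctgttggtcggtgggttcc
H2AC20: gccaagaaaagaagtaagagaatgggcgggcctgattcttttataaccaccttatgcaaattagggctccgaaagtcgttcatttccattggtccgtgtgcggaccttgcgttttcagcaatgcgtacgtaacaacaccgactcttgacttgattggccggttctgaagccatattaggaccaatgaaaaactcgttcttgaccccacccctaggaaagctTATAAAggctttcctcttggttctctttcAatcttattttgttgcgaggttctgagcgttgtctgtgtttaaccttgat
JUNB: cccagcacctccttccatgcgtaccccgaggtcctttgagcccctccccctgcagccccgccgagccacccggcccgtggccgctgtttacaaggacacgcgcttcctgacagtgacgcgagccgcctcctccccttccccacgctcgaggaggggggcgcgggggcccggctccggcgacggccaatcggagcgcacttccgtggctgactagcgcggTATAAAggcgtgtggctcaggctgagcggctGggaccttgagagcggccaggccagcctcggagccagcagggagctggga
EGR1: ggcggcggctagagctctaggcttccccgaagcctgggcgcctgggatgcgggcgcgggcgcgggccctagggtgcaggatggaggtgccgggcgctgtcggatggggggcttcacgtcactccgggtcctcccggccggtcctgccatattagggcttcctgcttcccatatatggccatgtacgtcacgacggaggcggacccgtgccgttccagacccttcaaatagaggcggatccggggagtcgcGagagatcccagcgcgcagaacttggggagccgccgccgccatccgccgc
ZNF302: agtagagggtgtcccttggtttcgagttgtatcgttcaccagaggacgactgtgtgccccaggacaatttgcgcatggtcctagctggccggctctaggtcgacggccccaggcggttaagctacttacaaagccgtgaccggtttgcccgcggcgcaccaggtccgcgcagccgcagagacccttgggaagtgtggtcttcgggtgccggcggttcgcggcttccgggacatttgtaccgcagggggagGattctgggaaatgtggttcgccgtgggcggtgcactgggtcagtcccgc

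The letters began 29 bp before the TSS in H1-4, HNRNPAB and H2AC20, 31 bp before it in JUNB and 53 bp before it in H2BC5. EGR1 and ZNF302 held no match in this window. At JUNB the summits of the peaks lay 25 bp after the TSS in the control shRNA list and 29 bp after it without doxycycline, and at HNRNPAB 40 and 29 bp after it. The other summits lay further off or before the TSS (negative values). They were at -652 and -1735 bp for H2BC5, 1165 and 82 bp for H1-4, and -82 and -296 bp for H2AC20. H2BC5 and H1-4 share their peak in each list, so the rank of H2BC5 is that of the joint peak. At EGR1 the summit lay at 3302 bp in the control shRNA list, close to the end of this short gene, and at 92 bp without doxycycline. A match is a description of the letters and not of bound factors.

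At promoters found in both lists the median tags per kb, not scaled for depth, were close, and the rank order was shared only in part. For each gene the tags of its promoter peaks were divided by their summed length. Over the 3403 shared promoters the median was 52.1 tags per kb in the control shRNA list (51.6 to 52.4) and 52.3 without doxycycline (51.4 to 52.99). The median promoter held 92 and 98 tags over 1753 and 1787 bp. The log2 ratio of control shRNA over no doxycycline had a median of 0.04, and 90% of genes lay between 0.667-fold and 1.68-fold. 75 genes were over 2-fold apart, a background of 2.2% of the shared genes, of which 59 were higher in the control shRNA list and 16 without doxycycline. Spearman's rho over the 3403 genes was 0.57 for tags per kb and 0.66 for tags, as a description of 2 libraries whose genes share chromosomes, antibody and mapping. The strength that MACS, the peak caller, gave to the same promoters differed more. The median fold enrichment over background was 15.1 in the control shRNA list and 46.5 without doxycycline, and only 54 of the 3403 genes (1.59%) had the higher value in the control shRNA list. The shared promoters were made of a single peak in 94.4% of genes in the control shRNA list and in 75.3% without doxycycline.

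**Figure D1:**
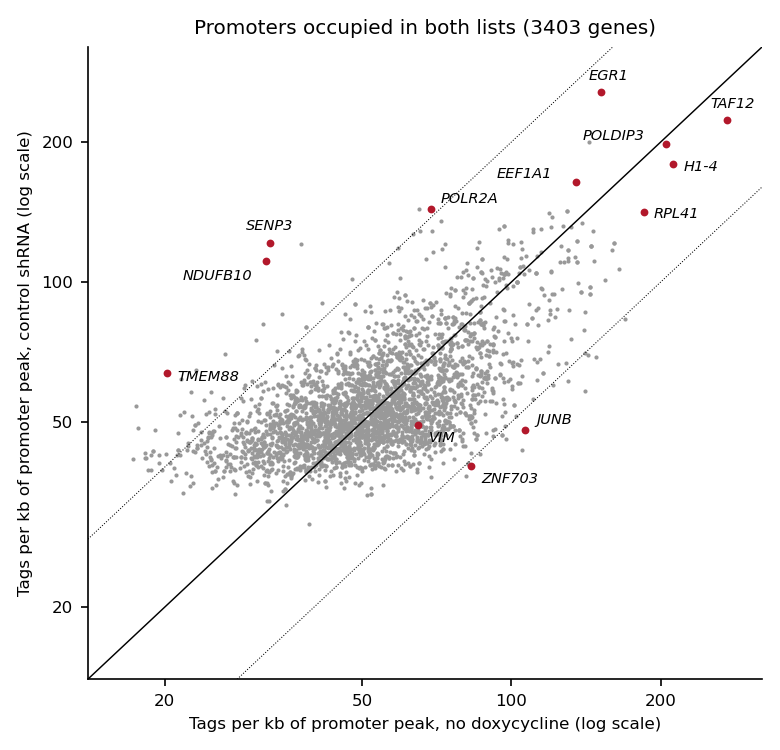
Tags per kb of promoter peak at the 3403 genes occupied in both lists, each point 1 gene, on log axes (no doxycycline on x, control shRNA on y). The solid line marks equal values and the dotted lines 2-fold, beyond which lie 75 genes, and some of the genes named in the text are in red.

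The densest peaks of both lists lay over genes of small nuclear and nucleolar RNAs. The densest peak of either list lay over SNORD3B-1 and SNORD3B-2, copies of the U3 small nucleolar RNA gene that guides ribosomal RNA processing, with 425.8 tags per kb (1717 tags) in the control shRNA list and 656.5 (2796 tags) without doxycycline. SNORD3A and SNORD3C, a second U3 locus, followed with 411.7 and 650.4 tags per kb. These near-identical copies share reads, so that their single values are uncertain. Peaks over the U5 spliceosomal RNA gene RNU5F-1 and over RNU1-85P, a copy of the U1 gene, were among the 6 densest of the control shRNA list (344.6 and 343.9 tags per kb), and peaks over RNU1-1 and RNU1-4 among those of the no doxycycline list (378.0 and 369.2 tags per kb).

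Among coding genes, 4 of the 6 densest promoters were in common. TAF12, a subunit of the general factor TFIID, had 777 tags over 3489 bp in the control shRNA list (222.7 tags per kb, exact Poisson interval 207 to 239) and 912 tags over 3349 bp without doxycycline (272.3, 255 to 291). Of these, 691 and 787 tags lay in a single peak of each list that also touched TAF12-DT and ENSG00000270103, outside the coding set. The neighbours named for the other genes here are coding genes only, so signal from non-coding genes is not set apart. H1-4 and H2BC5 shared 1 stretch of peaks with 741 tags (179.0 tags per kb) and 780 tags (212.0). POLDIP3, which acts in mRNA export and translation, had 563 and 615 tags (198.0 and 204.6 tags per kb). All 3 promoters stood at percentile 99.9 or 100 of both lists (rounded), where 100 is the highest. The control shRNA list was led instead by EGR1, an immediate early transcription factor. EGR1 (ENSG00000120738, chr5:137801168-137804992) had 2763 tags over 10813 bp, or 255.5 tags per kb (246 to 265), against 1420 tags over 9372 bp, or 151.5 (144 to 160), without doxycycline. It was still at percentile 99.9 there. WDR74, a ribosome assembly factor, followed the same direction with 199.6 and 143.5 tags per kb, although its no doxycycline peaks also touched the promoters of STX5 and TEX54. RPL41, a ribosomal protein gene whose peak also covers the promoters of ZC3H10 and ESYT1, was among the 6 densest without doxycycline alone, with 141.7 and 184.7 tags per kb (percentiles 99.6 and 100).

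Of the 100 densest promoters of each list 48% were in common (38.5 to 57.7%), of the 500 densest 51.6% (47.2 to 56.0%) and of the 1000 densest 54.1% (51.0 to 57.2%). Of the 100 densest promoters without doxycycline 7 had no promoter peak in the control shRNA list, as did 43 of the 500 densest. Of the 500 densest in the control shRNA list 3 lacked one without doxycycline.

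Genes missing from the control shRNA list were more often those with few tags per kb. Within the no doxycycline list, the share of promoters also found in the control shRNA list rose with every decile of tags per kb, from 2.75% (31 of 1129 genes) in the lowest decile through 16.8% and 25.2% in the middle to 84.1% (950 of 1129) in the highest. The other libraries started far higher in the lowest decile, with 31.4% in shRNA5, 58.2% in shRNA7 and 34.5% with doxycycline, and reached 98.1%, 93.0% and 99.9% in the highest. The 7887 promoters of the no doxycycline list alone had a median of 34 tags and 31.7 tags per kb. Of them 4403 (55.8%) were at or above 30.1 tags per kb, the lowest density in the control shRNA list, and 664 at or above its median promoter of 52.1. Most were seen again elsewhere: shRNA5 held 64.9% of them (background 44.5% of all coding genes), shRNA7 82.7% (52.8%) and doxycycline 75.6% (48.2%). Their genes were also longer, with a median of 35.2 kb against 25.8 kb for those in both lists and 17.3 kb in neither.

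**Figure D2:**
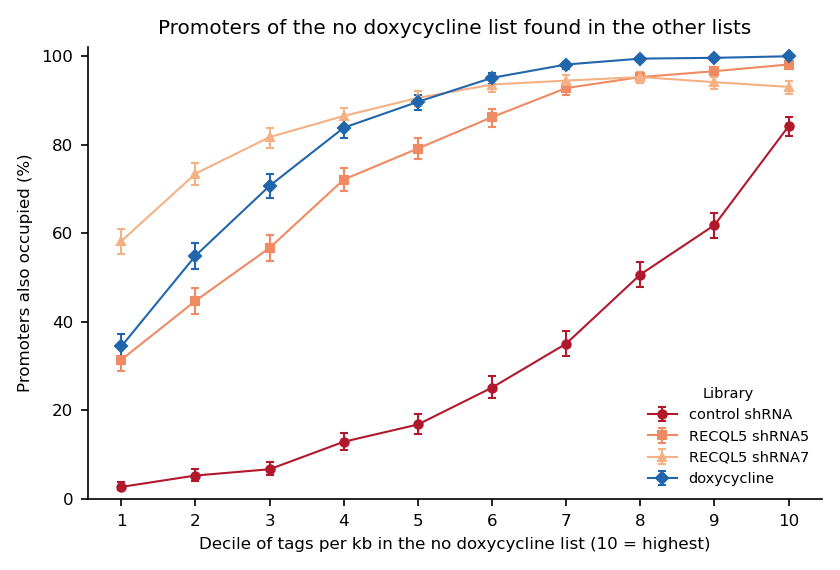
Share in percent of the no doxycycline list's promoters that were also occupied in each other library (y), by decile of tags per kb without doxycycline (x, 10 the highest, 1129 genes each). Bars are 95% Wilson intervals, and the control shRNA library runs from 2.75% to 84.1%, below the other 3 in every decile.

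Because the no doxycycline list reaches further down, a promoter found in both ranks higher within it. The shared promoters had a median percentile of 49.99 in the control shRNA list and 79.2 without doxycycline. Percentiles at least 25 points apart were found at 68 genes higher in the control shRNA list (background 2% of the shared genes) and 1536 higher without doxycycline (45.1%). When the 3403 genes were ranked only among themselves, 577 genes were at least 25 points higher in the control shRNA list and 567 without doxycycline. Ranks of the same genes have the same mean in both lists, so that near-equal counts were close to fixed beforehand. They do not show where the excess came from.

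Of the 6 genes with the greatest excess of rank in the control shRNA list, 4 shared their control shRNA peak with the promoters of neighbours. SENP3, which removes SUMO from proteins, had 1619 tags over 13349 bp in the control shRNA list (121.3 tags per kb), and this same peak touched the promoters of CD68 and of EIF4A1, the RNA helicase of translation initiation. Without doxycycline SENP3 had 73 tags of its own (32.7 tags per kb), while EIF4A1 had 1330 tags (160.8 tags per kb). NDUFB10, a subunit of respiratory complex I, likewise shared 668 tags with RPS2 in the control shRNA list (110.8 tags per kb) and had 23 tags without doxycycline (31.9). TMEM88 shared 206 tags with CYB5D1 and NAA38 (63.8 tags per kb) against 21 tags (20.2). These 3 values thus compared a joint stretch with a single promoter. The same holds for H3C7, a histone H3 gene whose 121 tags (69.9 tags per kb) also covered H2BC9, against 27 tags (26.5). 2 genes had peaks that touched no other promoter. IL34, a cytokine gene, had 303 tags (64.8 tags per kb) and 12 tags (23.1), and CFB, complement factor B, had 339 tags (61.8) and 21 tags (21.6). Both were high also in shRNA5 (91.4 and 86.5 tags per kb) and shRNA7 (117.3 and 106.5), the other libraries made with lentivirus, and both lacked a promoter peak with doxycycline. Some peaks of the control shRNA list were thus broad where the no doxycycline list held several. Of its 4951 peaks touched by a no doxycycline peak, 31.8% were touched by more than 1, and by up to 9.

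In the other direction the peaks mostly served 1 promoter. JUNB (ENSG00000171223), whose promoter is shown above, is not among the 6 with the greatest excess, but is named as an immediate early gene. It had 140 tags over 2920 bp in the control shRNA list (47.9 tags per kb, 40.3 to 56.6, percentile 34.1) and 111 tags over 1040 bp without doxycycline (106.7, 87.8 to 129, percentile 99.0). JUNB thus had more tags in the control shRNA list, over a longer stretch. ZNF703, a transcriptional repressor, had 80 tags over 1992 bp (40.2 tags per kb) and 602 tags over 7260 bp (82.9), with percentiles of 4.45 and 96.8. PPA1, an inorganic pyrophosphatase, had 40.7 and 81.6 tags per kb, DLST, a subunit of the 2-oxoglutarate dehydrogenase complex, 39.0 and 64.5, TPRN 38.3 and 81.1, and H2BC12L, a histone H2B gene, 38.1 and 68.7. PLPPR3 had 53 tags (40.8 tags per kb) and 1623 tags (81.6), but its no doxycycline stretch of 19888 bp also reached PTBP1, a splicing regulator.

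Only 9 genes had a control shRNA promoter peak and no peak anywhere in the gene without doxycycline. LAMA2, a laminin chain of the basement membrane, led them with 119 tags (77.2 tags per kb, 64.0 to 92.4), and it had 134.3 tags per kb in shRNA5, 100.5 in shRNA7 and 34.0 with doxycycline. MSH4, a meiotic DNA repair gene, had 59.3 tags per kb in the control shRNA list, 90.8 in shRNA5 and 112.7 in shRNA7, where the peaks also touched RABGGTB, and no promoter peak with doxycycline. CCNP, a cyclin gene, had 53.1, 87.9 and 106.2 tags per kb in the same libraries and none with doxycycline. H2BC9 shared the peak of H3C7. ZDHHC8, a protein palmitoyltransferase, had 52.8 tags per kb and CFAP53, a gene of cilia, 50.1. Over all 17 promoters of the control shRNA list alone, 16 were occupied in shRNA5, 16 in shRNA7 and 6 with doxycycline. In the same libraries 99.3%, 93.9% and 98.5% of the promoters of both lists were occupied, and 44.5%, 52.8% and 48.2% of all coding genes. The 17 were chosen for absence from the no doxycycline list, which comes from the same T-REx cells as the doxycycline library.

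The opposite set held 7130 genes. Its densest promoters were POLR2J3 (162.2 tags per kb without doxycycline, listed under 2 gene IDs and close in sequence to other POLR2J copies, so that reads may be split), RECQL5 (127.3), APC2 (119.2) and ZNF302 with SCGB2B2 (112.4). APC2, a regulator of Wnt signalling, shared its stretch of 1003 tags with the ribosomal protein gene RPS15. ZNF302 had 184 tags over 1637 bp without doxycycline, 97.3 tags per kb with it and 141.4 in shRNA7, and no promoter peak in shRNA5. RECQL5 (ENSG00000108469, chr17:73622934-73663269) had 983 tags over 7719 bp (119 to 136 tags per kb) without doxycycline, in peaks that also touched SAP30BP, and 173.3 tags per kb with it. In the lentivirus libraries it had no peak in the control shRNA list or at its promoter in shRNA5, and 75.2 tags per kb in shRNA7. The T-REx cells carry RECQL5 sequence on the plasmid, and tags from it and from the gene cannot be told apart. PGK1, whose promoter is also part of pLKO.1 vectors, had 85 tags in the control shRNA list (62.7 tags per kb, 50.1 to 77.6) and 89 without doxycycline (52.0, 41.7 to 63.9), intervals that overlap.

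The gene lists showed which functions the shorter list reached. Beside the backgrounds of 17.3% and 57%, the control shRNA list held the promoters of 82 of 87 cytosolic ribosomal protein genes, and the no doxycycline list 86. Their median percentiles, over the members occupied in each list, were 91.0 and 94.9. RPL10A (132.0 and 127.0 tags per kb) and RPS4X (140.9 and 118.8) stood high in both. Of 66 replication-dependent histone genes, which are transcribed as cells copy their DNA, 48 and 54 were occupied, at median percentiles of 95.2 and 97.6. H1-2 had 134.2 and 138.9 tags per kb. Of 36 SR and hnRNP genes, which encode splicing factors, 26 and 33 were occupied. HNRNPAB had 131.5 and 132.1 tags per kb, HNRNPA1 129.8 and 114.9, and SRSF7 113.9 and 112.8. All 7 protein-coding hosts of small nucleolar RNAs were in both lists (20 hosts were asked for, and the others are not coding genes), among them EIF4A2 (103.9 and 106.0 tags per kb) and RACK1 (107.3 and 93.5). Of 57 translation factor genes 36 and 52 were occupied. EEF1A1, which carries transfer RNAs to the ribosome, had 164.1 and 134.7 tags per kb and EIF1 128.5 and 145.7.

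**Figure D3:**
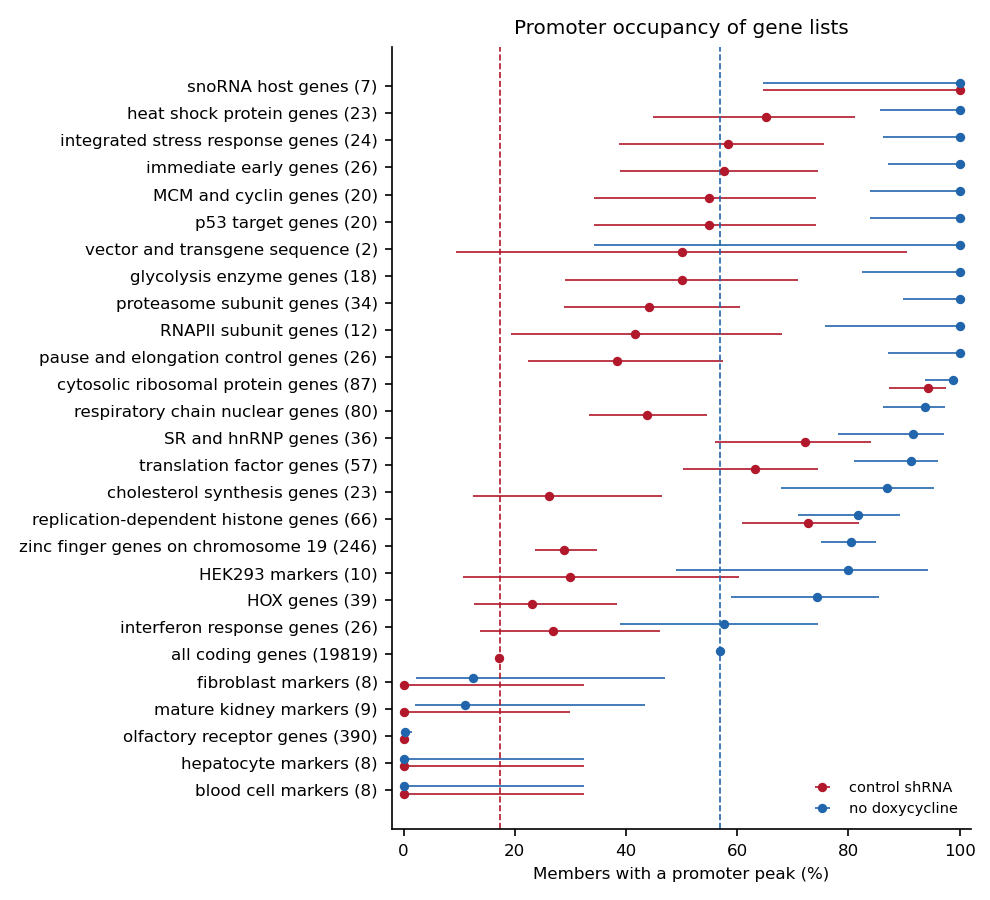
Share of the members of each gene list with a promoter peak (x, percent, with 95% Wilson intervals) in the control shRNA list (red) and the no doxycycline list (blue), with the number of coding genes in brackets. Dashed lines mark the 17.3% and 57% of all coding genes.

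Lists of housekeeping metabolism were complete or nearly so only without doxycycline. Of 34 proteasome subunit genes 15 were occupied in the control shRNA list and 34 without doxycycline, with PSMC4 at 79.4 and 91.7 tags per kb. Of 18 glycolysis genes 9 and 18 were occupied, with GAPDH at 82.6 and 118.5 tags per kb and TPI1 at 70.3 and 69.5. Of 80 nuclear genes of the respiratory chain 35 and 75 were occupied, with COX7A2 at 82.6 and 64.2. Of 20 MCM and cyclin genes of the cell cycle 11 and 20 were occupied, with PCNA at 77.0 and 76.5, and of 23 cholesterol synthesis genes 6 and 20, with HMGCS1 at 60.1 and 83.5. Of 26 genes that control pausing and elongation 10 and 26 were occupied, with HEXIM1, which holds the elongation kinase inactive, at 105.3 and 120.0 and SUPT5H, a subunit of the pausing and elongation factor DSIF, at 103.4 and 81.8.

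Stress and signal response genes followed the same pattern. All 26 immediate early genes, which are transcribed within minutes of a stimulus, were occupied without doxycycline and 15 in the control shRNA list. Their median percentiles were 82.8 and 88.3, both above the 50 of all occupied genes. Besides EGR1 and JUNB, JUN had 93.8 tags per kb in the control shRNA list and 116.1 without doxycycline, FOS 74.8 and 87.3, IER2 83.9 and 93.1, and DUSP1, a phosphatase of MAP kinases, 77.1 and 83.6. IER5 had 145 and 212 tags (106.4 and 164.7 tags per kb, with intervals of 89.8 to 125 and 143 to 188). MCL1 (81.9 and 85.7), ATF3 (55.9 and 57.9) and CCN1 (60.0 and 54.4) were close. BTG2, FOSB, IER3, JUND and ZFP36L1 made up the 15, between 43.9 and 66.9 tags per kb in the control shRNA list and 39.4 and 68.4 without doxycycline. The 11 found without doxycycline alone were CCN2, EGR2, EGR3, KLF2, KLF4, KLF6, KLF10, MYC, NR4A1, SRF and ZFP36, between 27.8 (KLF2) and 67.4 tags per kb (ZFP36). CCN2, KLF6 and SRF had a control shRNA peak elsewhere in the gene.

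Of 23 heat shock protein genes 15 and 23 were occupied, with HSP90AB1 at 120.7 and 100.5 tags per kb and HSPA1B at 107.9 and 73.4. Of 24 genes of the integrated stress response 14 and 24 were occupied, with ATF4, its main transcription factor, at 117.6 and 104.9. Of 20 p53 target genes 11 and 20 were occupied, with GADD45B at 123.3 and 98.6 and MDM2 at 70.2 and 57.5. Interferon response genes, in contrast, were near the background in both lists, with 7 and 15 of 26 occupied. IRF1 had 56.3 and 36.7 tags per kb, and ISG15 117 tags (44.8 tags per kb) and 747 tags (72.9). The median percentiles of interferon response genes, over the 7 and 15 members occupied in each list, were 14.9 and 42.3. Over the 7 members in both lists, ranked among shared genes alone, they were 14.9 and 15.2. The median log2 ratio of control shRNA over no doxycycline of these 7 was 0.62, beside 0.04 over all shared genes, with ISG15 the other way.

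Of the 12 genes that encode RNAPII itself, 5 were occupied in the control shRNA list and 12 without doxycycline. POLR2A, the largest subunit, had 710 tags over 4945 bp in the control shRNA list (143.6 tags per kb, 133 to 155) and 805 tags over 11723 bp without doxycycline (68.7, 64.0 to 73.6), in peaks that also touched ZBTB4. It had 125.0 tags per kb in shRNA5, 158.2 in shRNA7 and 215.0 with doxycycline, so that the no doxycycline value was the lowest of the 5. POLR2J had 86.8 and 112.2 tags per kb, POLR2I, which shares its stretch with TBCB, 52.0 and 57.3, POLR2K 47.2 and 56.9, and POLR2H 41.1 and 36.7. The other 7, POLR2B, POLR2C, POLR2D, POLR2E, POLR2F, POLR2G and POLR2L, had from 25.9 (POLR2G) to 54.3 tags per kb (POLR2L) without doxycycline.

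Markers of other cell types were at or near 0 in both lists. HEK293 markers and HOX genes had higher shares than the backgrounds of 17.3% and 57%. For HEK293 markers, the intervals (10.8 to 60.3% and 49.0 to 94.3%) included these backgrounds. For HOX genes, the interval of the control shRNA list did (12.6 to 38.3%), and that of the no doxycycline list did not (58.9 to 85.4%). Of 10 markers of HEK293 cells, 3 and 8 were occupied. Among these, chosen for their epithelial, neuronal and early kidney character, VIM, KRT8 and KRT18 were occupied in both lists. VIM, the intermediate filament vimentin, had 55 tags over 1116 bp in the control shRNA list (49.3 tags per kb) and 748 tags over 11518 bp without doxycycline (64.9), and it had 168.3 tags per kb in shRNA5 and 247.0 in shRNA7. The keratin genes KRT8 (49.3 and 48.9 tags per kb) and KRT18 (45.6 and 35.8) share peaks. NEFL, PAX2, LHX1 and SALL1 were among those occupied without doxycycline alone, with 45, 18, 9 and 38 tags, and NEFM and EYA1 in neither list. Markers of mature kidney (0 and 1 of 9), fibroblasts (0 and 1 of 8), blood cells and hepatocytes (each 0 of 8 in both lists) and the 390 olfactory receptor genes (0 and 1) were absent but for single members, SLC12A1, COL1A1 and OR1F1, with 37, 26 and 13 tags. Of 39 HOX genes 9 and 29 were occupied (23.1% and 74.4%), with HOXB9 at 50.8 and 43.7 tags per kb and HOXD3 at 55.1 and 36.6. Outside coding genes and away from their TSS, 396 and 1511 of 15021 long non-coding RNA genes were occupied, as were 105 and 189 of 1375 small nucleolar RNA genes and 43 and 175 of 2823 microRNA genes.

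Peak by peak, 93.6% of the control shRNA peaks (4951 of 5287, 93.0 to 94.3%) were touched by a no doxycycline peak, and 14.8% (6980 of 47060) the reverse. The share was 99.4% for control shRNA peaks at promoters, 87.1% in gene bodies and 83.4% elsewhere. Beside 1815 of all 5287 control shRNA peaks in gene bodies, 235 (69.9%) of the 336 without a counterpart lay there. Libraries of the same virus system held most of them, with 313 touched in shRNA5 and 294 in shRNA7, against 106 with doxycycline. The share of all control shRNA peaks touched in each library is not given here to set beside these. The 336 were also chosen for absence from the list of the other T-REx library. The largest were a peak of 433 tags at chr19:40563658-40572174, over a gene known only by an identifier, 394 tags at chr6:79779114-79785443 within PHIP, 347 and 315 tags within ZNF711 and 346 tags at chr19:30490206-30497143 within URI1. Over the whole no doxycycline list 27979 of 47060 peaks lay in gene bodies. The 40080 no doxycycline peaks without a counterpart were there in 62.2% of cases, a like share. The 6 with the most tags were 2394 tags over 34372 bp at PCBP2, 1571 tags over 17430 bp at HNRNPL, 1365 tags over 26003 bp at the repeated 5S ribosomal RNA genes, whose copies share reads, 1296 tags over 19357 bp at HNRNPH1, 1282 tags over 5059 bp that touched no annotated gene, and 893 tags over 16183 bp at BCLAF1.

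Summits at shared promoters lay at like distances from the TSS. Peaks touching these promoters had a median summit 24 bp (20 to 27) after the nearest coding TSS in the control shRNA list, over 2964 peaks, and 20 bp (17 to 23) after it without doxycycline, over 4005 peaks. Within 150 bp of the TSS lay 63.1% and 64.9% of them. Gene by gene, the summits of the densest promoter peak of each list were a median of 73 bp apart. For 57.9% of genes they were at most 100 bp apart, and for 8.26% over 1 kb, as at EGR1.

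**Figure D4:**
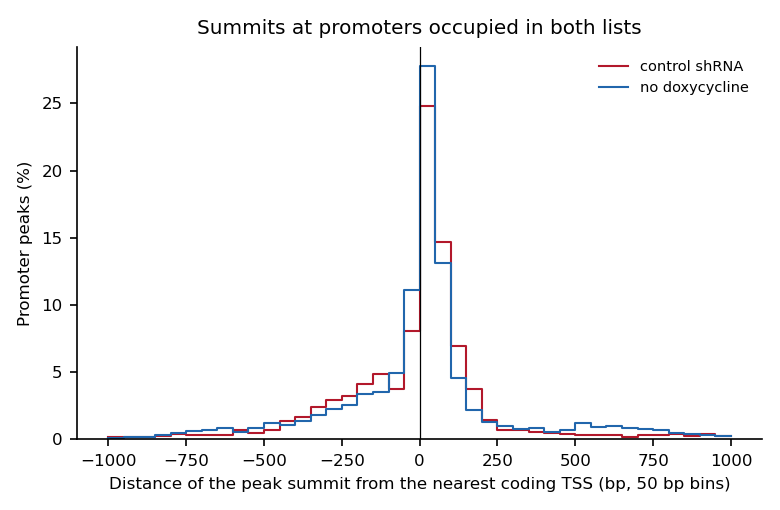
Distance in bp of peak summits from the nearest coding TSS at shared promoters (x, positive in the direction of transcription) against the share of promoter peaks in percent (y), for control shRNA (red, 2964 peaks) and no doxycycline (blue, 4005 peaks). Both curves are highest in the bin just after the TSS, and the medians are 24 and 20 bp.

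The ratio between the lists varied by chromosome. This pattern was looked for after the values had been seen. The median log2 ratio of tags per kb, control shRNA over no doxycycline, was 0.04 over all shared promoters (0.03 to 0.07). It was 0.19 on chromosome 6 (305 genes, 0.14 to 0.24), 0.23 on chromosome 16 (139 genes), 0.20 on chromosome 17 (305 genes), 0.16 on chromosome 18 (57 genes) and 0.25 on chromosome 19 (301 genes, 0.17 to 0.32). Chromosome X had 0.19 (78 genes, 0.02 to 0.26). It was -0.12 on chromosome 10 (122 genes, -0.22 to -0.04). With the tags of each promoter in place of tags per kb, the offset from the median of all genes was greater, 0.64 in place of 0.15 on chromosome 6 and -0.49 in place of -0.16 on chromosome 10.

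Chromosomes 6, 10, 16, 17, 18 and 19 stood out again when shRNA5 was set against the same no doxycycline list. The values were 0.65 on chromosome 6, 0.60 on chromosomes 16 and 17 and 0.25 on chromosome 10 beside 0.47 over all genes. Chromosome 18 had 0.59 (0.51 to 0.72) and chromosome 19 had 0.56 (0.51 to 0.62). Doxycycline over no doxycycline, both from T-REx cells, gave 0.19 on chromosome 6, 0.18 on chromosome 10 and 0.19 over all genes, and control shRNA over shRNA5, both from HEK293 cells with lentivirus, gave -0.37 on chromosomes 6 and 10 and -0.41 over all. Chromosome X did not stand out for shRNA5 over no doxycycline (0.47), and for control shRNA over shRNA5 it was at -0.31. These ratios share libraries and are not independent of each other. Within chromosome 19, the 91 genes below 20 Mb had a median control shRNA over no doxycycline ratio of -0.07 (-0.17 to 0.07) and the 196 genes above 30 Mb 0.38 (0.29 to 0.47). For shRNA5 the values were 0.37 and 0.72, for shRNA7 0.70 and 1.00, and for doxycycline 0.23 and 0.26, each over no doxycycline. Zinc finger genes of chromosome 19 had 71 and 198 of 246 members occupied, and their median log2 ratio over the shared members was 0.22. Among them ZNF225 had 101.5 and 88.5 tags per kb and ZNF260 86.8 and 72.2, while ZNF566 had 87.7 and 113.1.

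**Figure D5:**
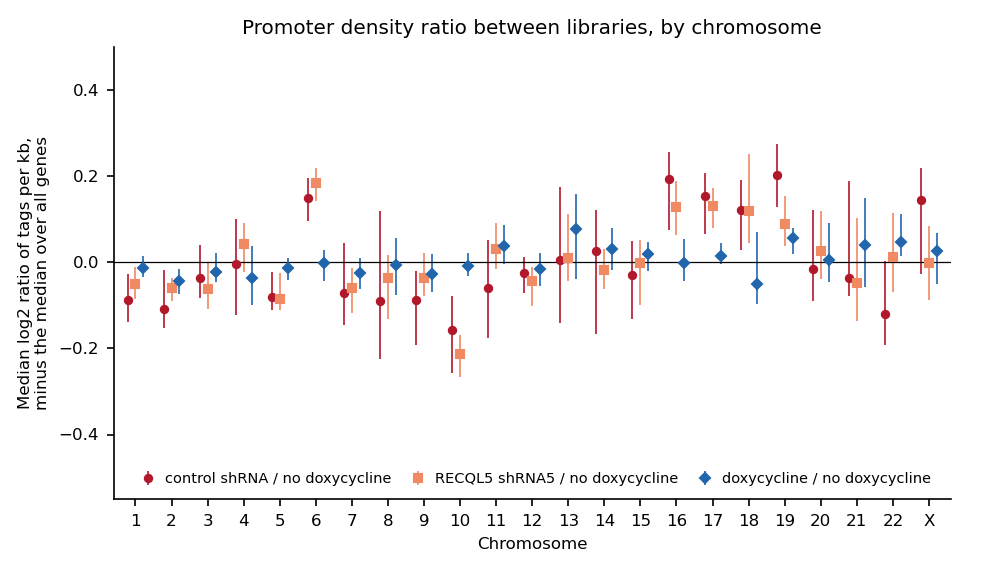
Median log2 ratio of promoter tags per kb per chromosome (y), minus the median over all genes of that ratio, with 95% order-statistic intervals, for control shRNA (red circles), shRNA5 (orange squares) and doxycycline (blue diamonds), each over no doxycycline. Chromosome 6 lies 0.15 above and chromosome 10 lies 0.16 below the median for control shRNA, while the doxycycline ratio lies within 0.01 of it on both.

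Occupancy varied by chromosome as well. The share of no doxycycline promoters that the control shRNA list also held ranged over the autosomes from 12.02% on chromosome 8 and 15.8% on chromosome 13 to 42.4% on chromosome 17 and 47.7% on chromosome 6. Control shRNA peaks without a counterpart made up 11.9% of those on chromosome 6 and 17.4% on chromosome 18, beside 4.98% on chromosome 1 and 3.83% on chromosome 10.

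Within each system the ranks were closer than between them in some pairs and not in others. Over the promoters occupied in both baseline lists and in the library named, rho for tags per kb between control shRNA and shRNA5 was 0.69 (3380 genes) and between no doxycycline and doxycycline 0.75 (3353 genes). Between control shRNA and shRNA7 it was 0.51 (3195 genes), below the 0.57 between the baseline lists and the 0.60 between control shRNA and doxycycline. Between shRNA5 and shRNA7 it was 0.64. With no doxycycline and with doxycycline, shRNA5 had 0.49 and 0.54 and shRNA7 0.38 and 0.42, each lower than with control shRNA. The libraries within each system differ in RECQL5.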

How the data were processed

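Formaldehyde-fixed HEK293 cells were used for ChIP with an RNAPII antibody. Per the labels' processing notes and the study's methods, base calls came from CASAVA 1.8, 36-base reads were aligned to hg19 with Bowtie 0.12.7, and peaks were called per library against IgG with MACS 1.4.2. The authors' lists give position, length and summit, the count of tags in each peak (deposited, not normalised), a score (the authors' −log10 p-value times 10), a fold enrichment, deposited as a ratio over local background, and an FDR deposited in percent by the authors.

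All peaks ended within the GRCh37 chromosomes. Genes were taken from GENCODE release 44 lifted to GRCh37, restricted to coding transcripts, and coordinates are counted from 1. A promoter was occupied when a peak touched 500 bp on either side of a coding TSS. Tags per kb were the summed tags of those peaks over their summed length, and percentiles were ranked within each list. No columns were left unassigned, and computations used Python 3.11.15 with pandas 2.3.3 and scipy 1.17.1, tested on simulated data. The members, the gene lists and the comparisons were chosen with earlier results of these data known.

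Genes were named by a rule: the 6 with the most tags per kb in each list, the 6 with the greatest percentile difference each way, the 6 densest in 1 list with no peak in the gene in the other, all members of the HEK293 marker, immediate early, vector and RNAPII subunit lists, and the 3 highest of each other list by mean percentile, of which some are given and some members are not reported here. The 3 lists with changed RECQL5 were used as side values only. Alternatives were a score of at least 100, a fold enrichment of at least 10, an FDR of at most 5%, merging peaks under 1 kb apart, equal list lengths, other TSS windows, transcripts and overlaps, and other ranks.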

Additional observations from a re-analysis of the deposited data

How the results depend on the processing

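No paired analysis was possible because both groups consist of 1 library, and for the same reason no replicate could be left out. Of 177 values under alternatives 113 stayed within their counting interval (or 1.5 times a count) and 64 moved. None moved with an FDR of at most 5%, a TSS window of 1 kb, the longest transcript of each gene, chromosomes 1 to 22 and X, or promoters with peaks of their own. Whether a direction between the lists reversed was not scored, and some did. The median promoter was 1753 bp in the control shRNA list and 1787 bp without doxycycline as deposited. With a score of at least 100 it was 2597 and 2487 bp.

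Equal list lengths moved most. Cut to 5287 peaks by tags per kb or by score, the no doxycycline list had 5262 or 4684 promoter genes, the share of control shRNA genes found in it fell to 83.8% or 82.2%, and the reverse share became 54.5% or 60.0%. With gene bodies the shares were 78.6% or 79.1% and 60.5% or 67.2%. Of the control shRNA peaks 53.6% or 61.2% were then touched, and 51.1% or 59.8% the reverse. The Spearman correlation was 0.54 or 0.53. In the control shRNA list 343 or 421 genes ranked at least 25 points higher, against 677 or 585 without doxycycline. The excess of the latter was thus smaller than with the lists as deposited, and it remained. The cut lists still differed in promoter genes, 3420 against 5262 or 4684. Ranked among shared genes alone (chosen after seeing the data), 577 and 567 genes were that far apart, counts that such ranks make nearly equal. By tags per kb the no doxycycline promoter length was 1672 bp, by score the control shRNA one 1836 bp, and 10 gene lists in place of 1 had the higher median percentile in the control shRNA list, over members occupied in both lists.

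With a score of at least 100 the control shRNA list had 1562 promoter genes, 16.1% of the no doxycycline promoter genes (20.9% with gene bodies) were in it, 99.0% of control shRNA genes with gene bodies were in the other, 15.5% of the no doxycycline peaks were touched, 20 and 788 genes were 25 points apart, promoters covered 2597 and 2487 bp and the control shRNA summit lay at 31 bp. With a fold enrichment of at least 10 the shares of no doxycycline genes were 28.2% and 31.6%, peak overlap was 94.7% and 13.0%, and control shRNA promoters covered 1708 bp. Merged peaks gave an overlap of 13.0% of the no doxycycline peaks, a Spearman correlation of 0.44, 43.2% of the top 500 in common, 244 genes higher in the control shRNA list and 2249 bp per no doxycycline promoter. Requiring 50% of both peaks gave overlaps of 62.3% and 7.00%, and summits within 500 bp 72.4% and 8.24%.

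Ranks by tags, fold enrichment and score gave a Spearman correlation of 0.66, 0.52 and 0.62 and 67.8%, 61.4% and 64.2% of the top 500 in common. By fold enrichment 134 genes ranked higher in the control shRNA list. Under these 3 ranks and a score of at least 100, 0 gene lists had the higher such median in the control shRNA list. In ratios of tags, the chromosome medians minus that of all genes were 0.64 on chromosome 6, -0.49 on chromosome 10 and 0.33 on chromosome 19, in place of 0.15, -0.16 and 0.20, and 0.089 on chromosome 6 with a score of at least 100. The causes were not tested. The files hold no reads per library, and every absence from the shorter list is one from the list as deposited.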
